A study of Rattus norvegicus with 6 samples.

Results

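Ion channel genes are described here as predicted targets of microRNAs (miRNAs) in rat cardiac stem cells (CSCs), cultured progenitor cells of the heart. A gene was counted as a channel gene when its symbol in the authors' miRanda table of miRNA and gene pairs began with Kcn, Scn, Cacn, Hcn, Clcn, Ryr, with Itpr and a digit, or with Trp, one of the letters a, c, m or v, and a digit. This gave 52 of the 4260 genes in the table, in 87 of its 6133 pairs. One of the 52, Trpc4ap, encodes a protein associated with a TRP channel and not a channel subunit, and 9 are auxiliary or electrically silent subunits. The levels of the channel genes themselves were not measured in these samples, so all channel results below are predictions from sequence, and the measured quantities are miRNA signals.

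miRNA signals were measured on 6 Affymetrix arrays. The untreated group was 3 arrays of CSCs from Sprague Dawley rat hearts, at an age of 4 weeks, and the 3 exosome arrays held CSCs of the same strain, tissue and age grown for 3 days in medium with exosomes. The exosomes, small vesicles shed by cells, came from bone marrow mesenchymal stem cells (MSCs) at passage 4. They were obtained with a precipitation reagent, and no group received the reagent alone. The groups are told apart by sample titles and source names, since both carry one and the same treatment text. Whether the arrays stand for separate cultures or animals is not in the labels, so a p-value here reflects the spread among these 6 arrays, possibly a technical one. The authors list 22 differential miRNAs, 17 higher and 5 lower with exosomes, and their target table holds genes for these 22. The files name only these miRNAs, and none of a list of marker miRNAs of cardiac muscle, endothelium, blood or fibroblasts is among them, so the labelled cell type could not be checked. In such bulk RNA, fewer cells of a type and less RNA per cell cannot be told apart.

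Ion channels are membrane proteins that let potassium, sodium, calcium or chloride ions pass along their gradients, and together they set the resting potential and the action potential of heart cells. miRNAs are short RNAs that pair with messenger RNAs, mostly through the seed near their 5' end, and lower the output of the bound message. A predicted pair is a sequence match and not a measured effect.

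The miRNAs behind most of the pairs are printed first, since each predicted site is a match to one of these sequences. Of the 22 miRNAs, 17 had at least 1 channel gene, and the 11 with 2 or more carried 81 of the 87 pairs. They are given 5' to 3' from the authors' table, with the seed, bases 2 to 8, in capitals, first the 5 lower miRNAs and then 6 higher ones.
miR-760-3p: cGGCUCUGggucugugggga
miR-326-5p: gGGGGCAGggccuuugugaa
miR-328a-5p: gGGGGGCAggaggggcuca
miR-702-5p: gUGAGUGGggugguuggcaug
miR-207: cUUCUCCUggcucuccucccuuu
miR-362-5p: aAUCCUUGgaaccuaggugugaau
miR-500-5p: aAUCCUUGcuaucugggugcuuag
miR-330-3p: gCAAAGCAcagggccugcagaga
miR-501-3p: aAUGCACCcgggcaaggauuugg
miR-503-5p: uAGCAGCGggaacaguacugcag
miR-18a-5p: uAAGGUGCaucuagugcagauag
miR-362-5p and miR-500-5p share the seed AUCCUUG, and the seeds of miR-326-5p and miR-328a-5p both run through a stretch of G followed by CA. The 5 lower miRNAs had a G and C content of 56.5 to 78.9%, with a median of 65%, and the 17 higher ones 40.9 to 63.6%, with a median of 47.8%. Positions are those of the authors' table, with no build named in the sources used here. miR-362-5p (X, 27330451 to 27330474) and miR-500-5p (X, 27334619 to 27334642) lie on the plus strand of one X-chromosome cluster. miR-326-5p lies on chromosome 1 (156887532 to 156887551, plus strand), and miR-328a-5p on chromosome 19 (35122612 to 35122630, minus strand), antisense to an intron by the table's annotation. Clcn5, the chloride exchanger gene known to host the hairpins of miR-362-5p and miR-500-5p in mammals, had 0 pairs in the target table.

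Predicted channel pairs came mainly from the lower miRNAs. Of the 87 pairs, 60 (69%) were with a lower miRNA and 27 with a higher one, whereas over all genes 3354 of 6133 pairs (54.7%) were with a lower miRNA. By gene, 33 of the 52 (63.5%) were predicted for lower miRNAs alone, 9 (17.3%) for higher ones alone and 10 for both. Over all 4260 genes the shares were 46% and 36.9%. Put per miRNA side, channel genes made up 1.79% of the pairs of lower miRNAs and 0.97% of those of higher miRNAs. This is a description without a test, since the set of genes searched is not stated in the sources used here. When each miRNA was left out in turn the share of channel pairs from lower miRNAs ran from 63 to 73.2%, and that of all genes from 48.4 to 59.8%.

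**Figure D1:**
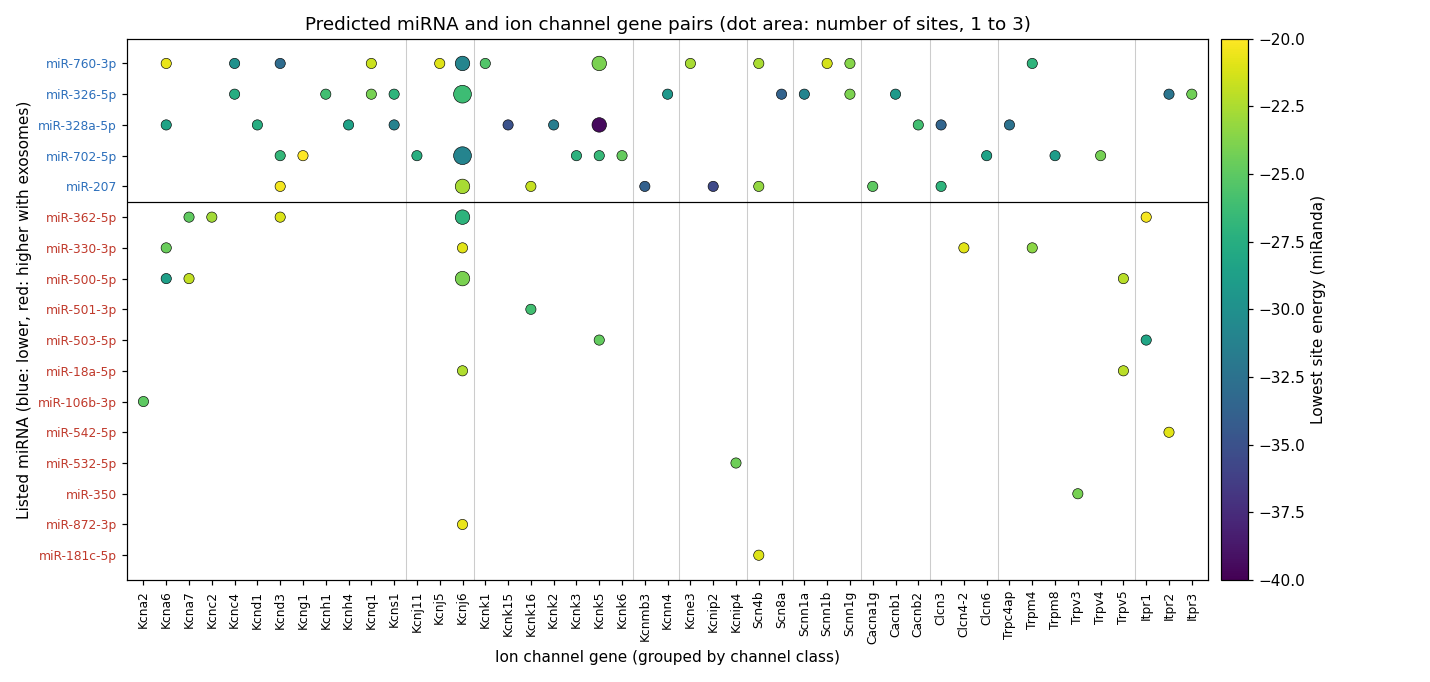
Each dot is a predicted pair of a listed miRNA (rows, lower miRNAs in blue above the line, higher ones in red below) and an ion channel gene (columns, grouped by class). Dot area gives the number of sites (1 to 3) and colour the lowest miRanda free energy. Of the 52 genes 47 are drawn, with 77 of the 87 pairs. The 5 blue rows hold 53 of the 77 dots, and the Kcnj6 column holds 9.

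miR-760-3p was predicted for 14 channel genes, miR-326-5p and miR-328a-5p for 13 each, miR-702-5p for 11 and miR-207 for 9. Among the higher miRNAs miR-362-5p had 5, miR-330-3p and miR-500-5p had 4 each, miR-501-3p and miR-503-5p had 3 each, and miR-18a-5p had 2. A further 6 miRNAs (miR-106b-3p, miR-542-5p, miR-532-5p, miR-350, miR-872-3p and miR-181c-5p) had 1 each. The remaining 5, among them miR-181b-5p, the brightest of the list, had none. These numbers went with how many genes each miRNA had in the table at all: the lower miRNAs had 508 to 748 genes each and the higher ones 25 to 522. As a share of its own predicted genes, miR-702-5p had the most channels of the lower miRNAs (2.17%) and miR-207 the fewest (1.25%). miR-330-3p, with 522 genes in all, had 0.77%, below each of the 5 lower miRNAs, whereas miR-362-5p, with 207, had 2.42%, above each of them.

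The measured levels behind these pairs differed between groups by less than the test required. In limma, fitted over all 728 mature rat miRNA probe sets with Benjamini-Hochberg adjustment, 0 had an adjusted p under 0.05 (0% of those tested), so 0 of the 17 miRNAs with a channel gene passed, with adjusted p of 0.228 to 0.31. The 17 were chosen by the authors on these same arrays, and an unadjusted p under 0.05 for 17 of 17 restates that choice. Over all mature probe sets, 12.1% were higher and 2.47% lower at an unadjusted p under 0.05. The direction of each miRNA is therefore used below only as a label. Of the 17, 16 had groups that did not overlap, 12 higher and 4 lower, where all exosome arrays lay above all untreated ones for 15.9% of probe sets and below them for 3.71%.

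miR-760-3p, with most channel genes, had log2 signals of 4.38, 4.40 and 4.07 on the exosome arrays and 4.69, 4.91 and 5.52 on the untreated arrays. All 3 exosome values lay below all untreated ones, and the difference in means was -0.76 ± 0.24 log2 (SE; limma adjusted p = 0.291). miR-326-5p had 1.64, 2.41 and 4.72 with exosomes against 6.04, 5.47 and 5.35 without. The groups did not overlap, but exosome replicate 3 lay close to the untreated ones, and the difference was -2.70 ± 0.77 log2 (SE; limma adjusted p = 0.288). With a floor of 4 on the log2 signals it was -1.38, and without exosome replicate 3 it was -3.60. miR-328a-5p, the brightest of the 5, had 6.85, 6.76 and 8.23 against 9.16, 8.35 and 8.62, and its exosome replicate 3 again lay nearest to the untreated arrays. The difference was -1.43 ± 0.44 log2 (SE; limma adjusted p = 0.288).

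The other lower miRNAs were dim on all 6 arrays, while miR-326-5p was that dim only on exosome replicates 1 and 2 (1.64 and 2.41). miR-702-5p had log2 signals of 2.94, 2.75 and 3.21 with exosomes and 3.65, 3.82 and 3.19 without. Its groups overlapped, since untreated replicate 3 lay below exosome replicate 3, and the difference was -0.59 ± 0.21 log2 (SE; limma adjusted p = 0.31). miR-207 had 0.54, 0.40 and 1.46 against 2.76, 1.89 and 1.64, a difference of -1.30 ± 0.39 log2 (SE; limma adjusted p = 0.288). The deposited detection calls had it present on all 3 untreated arrays and on 0 of the exosome arrays. Against each exosome array's lowest detected signal among the 22 listed miRNAs, or miR-207's own signal where higher, it was at least 1.31-fold lower with exosomes, and 2.46-fold from the signals themselves. The 11 channel pairs of miR-702-5p and the 9 of miR-207 belong to miRNAs whose signals were all under a log2 of 4.

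Among the higher miRNAs, miR-362-5p had log2 signals of 7.10, 7.50 and 7.15 with exosomes and 6.25, 6.70 and 6.41 without. Every exosome value lay above every untreated one, with a difference of 0.80 ± 0.18 log2 (SE; limma adjusted p = 0.248), which was 0.27 after quantile normalization. miR-500-5p, of the same seed, had 3.89, 4.42 and 4.18 against 3.29, 3.30 and 2.88. Its groups were also apart, by 1.01 ± 0.20 log2 (SE; limma adjusted p = 0.228), and by 0.20 with the floor of 4. miR-503-5p had the largest difference of the higher miRNAs with a channel gene, with 8.33, 8.44 and 8.32 against 7.29, 6.54 and 5.69. Here the untreated arrays were spread over more than a log2 unit and the exosome arrays were close together (1.85 ± 0.39 log2, SE; limma adjusted p = 0.228). For miR-330-3p the values were 5.58, 5.82 and 5.88 against 4.75, 4.97 and 5.29, and for miR-501-3p they were 5.74, 6.18 and 5.35 against 4.92, 4.76 and 5.02. Neither pair of groups overlapped, and the differences were 0.75 ± 0.18 and 0.85 ± 0.23 log2 (SE; limma adjusted p = 0.248 and 0.288). miR-18a-5p had 7.51, 7.70 and 7.73 against 7.08, 6.91 and 6.38, again without overlap (0.86 ± 0.21 log2, SE; limma adjusted p = 0.248). The 6 miRNAs with 1 channel gene each differed by 0.70 (miR-106b-3p) to 1.48 log2 (miR-181c-5p), and none of their groups overlapped.

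Bright probe sets as a whole were higher on the exosome arrays, by a median of 0.39 log2 over 171 mature probe sets whose mean log2 signal reached 5. The median difference of the 12 higher miRNAs with a channel gene was 0.84 log2 as deposited, 0.34 after quantile normalization and 0.47 with arrays centred on their bright miRNAs. That of the 5 lower ones was -1.30, -1.37 and -1.67 log2. The direction of all 17 was the same in these 3 scalings.

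**Figure D2:**
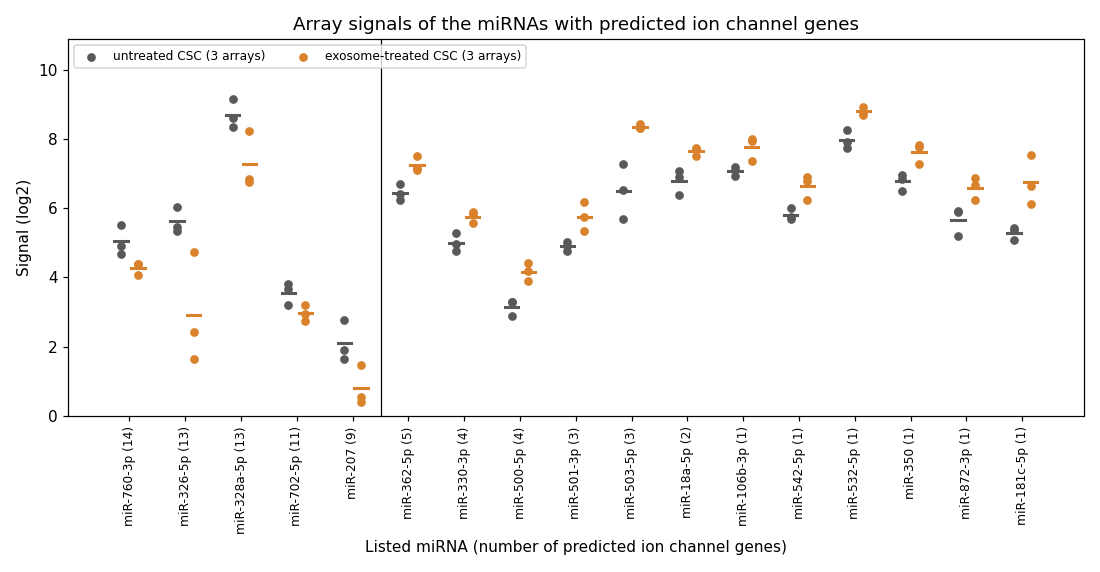
Log2 array signals (vertical axis) of the 17 miRNAs with a predicted channel gene (horizontal axis, with the number of channel genes in parentheses), untreated arrays in grey and exosome arrays in orange, 3 each, with bars at the means. The 5 lower miRNAs stand left of the line. The 2 dimmest of them, miR-702-5p and miR-207, lie under a log2 of 4 on all arrays.

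Potassium channels made up most of the set, with 30 of the 52 genes and 54 of the 87 pairs. The rule itself takes in many of them. Its 183 annotated rat genes include 41 voltage-gated, 15 inward rectifier and 14 two-pore potassium genes. A further 12 are of the calcium- or sodium-activated class and 12 are other potassium auxiliary genes. Of the 54 pairs, 38 (70.4%) were with lower miRNAs, near the 69% of all channel pairs. The inward rectifier Kcnj6 (GIRK2), which carries G protein-gated potassium current mainly in neurons, was predicted for 9 miRNAs, more than any other gene of the table. The 9 were 5 higher (miR-18a-5p, miR-330-3p, miR-362-5p, miR-500-5p and miR-872-3p) and 4 lower (miR-207, miR-326-5p, miR-702-5p and miR-760-3p). It also held most sites of any gene in the table, 17, where the next gene had 15 and the next channel gene 6. Its last site ended at position 12693 of the searched sequence, beyond the last site of every other gene, whereas the median last position was 476.5 over channel genes and 460 over all genes. The part of this length in the count was not tested. All 10 Kcnj6 sites of lower miRNAs had the 7 seed bases fully paired, against 2 of the 7 sites of higher miRNAs. Over all genes the shares were 73.5% at sites of lower and 64.6% at sites of higher miRNAs. The Kcnj6 sites are few and not independent, since some are repeats and some come from miRNAs of one seed.

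The 3 Kcnj6 sites of miR-702-5p sat at the start of the searched sequence, at positions 8, 56 and 104, with a spacing of 48 bases each time. They are shown because they are near copies of one another, with the bases opposite the seed in capitals.
Kcnj6 position 8: tgggtcagcctcccCCACTCAg
Kcnj6 position 56: tgggtcaacctcttCCACTCAg
Kcnj6 position 104: tgggtcagcctcccCCACTCAg
The copies at 8 and 104 were identical, and the one at 56 differed from them at 3 of 22 positions, all outside the capitals. Their scores were 165 each, with energies of -31, -26.42 and -31 in miRanda's units, which the authors' note sheet does not name. Being repeats, these 3 sites are not independent matches. A further Kcnj6 stretch, at positions 4324 to 4347, was counted for both miR-362-5p and miR-500-5p.

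The other inward rectifiers each had 1 lower miRNA and 1 site. Kcnj5 (GIRK4), a subunit of the acetylcholine-activated potassium channel of the atrium, was predicted for miR-760-3p with an energy of -20.99, close to the authors' limit of -20. Kcnj11, the pore of the ATP-sensitive potassium channel that couples metabolism to excitability, was predicted for miR-702-5p at -27.5. Other inward rectifiers of the heart, Kcnj2, Kcnj3, Kcnj8 and Kcnj12, had no pair listed.

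Two-pore potassium channels, which carry the background potassium current, had 7 of 14 annotated rat genes in the table, against 28.4% of all genes that match the rule. The smaller epithelial sodium and inositol trisphosphate receptor classes had 3 of 4 and 3 of 3. Kcnk5 (TASK-2), a pH-sensitive channel known from kidney, was predicted for 3 lower miRNAs (miR-328a-5p, miR-702-5p and miR-760-3p) and for miR-503-5p, through 6 sites. Its site of miR-328a-5p at positions 813 to 833 had the lowest energy of any channel site, -39.47, and a second site of the same miRNA at 906 to 926 had -37.71. Both are printed, the first with all 7 seed bases paired and the second with 6 paired and 1 G-U pair.
Kcnk5 position 813: agagatccctcacTGCCCCCc
Kcnk5 position 906: tgagcccctccccTGCCTCCa
Kcnk2 (TREK-1), a channel opened by membrane stretch, and Kcnk15 were predicted for miR-328a-5p, with energies of -31.58 and -34.95. Kcnk3 (TASK-1), an acid-sensitive channel of the atrium and of pulmonary artery muscle, and Kcnk6 were predicted for miR-702-5p, at -27.23 and -24.7. Kcnk1 was predicted for miR-760-3p at -25.41. Kcnk16, known from pancreatic islets, had 1 site of miR-207 and 1 of the higher miR-501-3p.

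Among voltage-gated potassium channels, 15 of 41 annotated genes (36.6%) were in the table, beside 28.4% of all genes that match the rule. Of the 15, 9 were with lower miRNAs alone, near the share of 63.5% over channel genes, with 46% over all genes. Kcnd3, a pore subunit of the transient outward current of early cardiac repolarization, was predicted for miR-207, miR-702-5p and miR-760-3p and for the higher miR-362-5p. Its accessory subunit Kcnip2, needed for full transient outward current in rodent heart, had 1 site of miR-207 with an energy of -35.57, the lowest of any channel gene other than Kcnk5. Kcnd1, of the same family, was predicted for miR-328a-5p at -27.57. Kcnq1, the pore of the slow delayed rectifier, was predicted for miR-326-5p and miR-760-3p at scores of 154 and 153, and Kcne3, an auxiliary subunit that can join Kcnq1, for miR-760-3p at 161. Sites in Kcnd3 and Kcnq1, genes of heart repolarization, and in Kcne3 are printed as examples.
Kcnd3 for miR-760-3p: ctcccacagttcCAGAGCGc
Kcnd3 for miR-362-5p: gcacctttttCAAGGATc
Kcnq1 for miR-326-5p: cttccacaggtCTGCCCCa
Kcnq1 for miR-760-3p: caactctgaatcCAGAGCCc
Kcne3 for miR-760-3p: gcattataaactCAGAGCCc
The capitals are again the bases opposite miRNA bases 2 to 8. In the Kcnip2 site of miR-207 and the Kcnd3 site of miR-760-3p, 6 of the 7 were paired. The Kcnd3 site of miR-362-5p lay at positions 1 to 18, the very start of its searched sequence.

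Kcna6, a delayed rectifier subunit of nervous tissue, was the voltage-gated gene with the best single site, of miR-330-3p (score 172, the highest of the 97 channel sites), and also had sites of miR-500-5p, miR-328a-5p and miR-760-3p.
Kcna6 for miR-330-3p: cttctttagagtccttTGCTTTGg
Its relatives Kcna7 and Kcna2 were predicted for higher miRNAs alone, Kcna7 for miR-362-5p and miR-500-5p at the same positions (846 to 868) and Kcna2 for miR-106b-3p. Kcnc4 was predicted for 2 lower miRNAs, miR-326-5p and miR-760-3p, and Kcnc2 for the higher miR-362-5p (score 165). Kcns1 and Kcng1, silent subunits that modify other voltage-gated potassium channels, were predicted for lower miRNAs, Kcns1 for miR-326-5p and miR-328a-5p and Kcng1 for miR-702-5p at -20.04, the weakest energy of the set.

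Further potassium channel genes had 1 miRNA each. Kcnh1 was predicted for miR-326-5p, and Kcnh4 for miR-328a-5p. Kcnn4, the intermediate-conductance calcium-activated channel known from blood cells and proliferating cells, was predicted for miR-326-5p at -29.34. Kcnmb3, an auxiliary subunit of the large-conductance calcium-activated channel, was predicted for miR-207 at a score of 167 and an energy of -33.89, although only 6 of its 7 seed bases were paired. Kcnip4, another member of the Kcnip family, was the single auxiliary potassium subunit predicted for a higher miRNA, miR-532-5p.

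**Figure D3:**
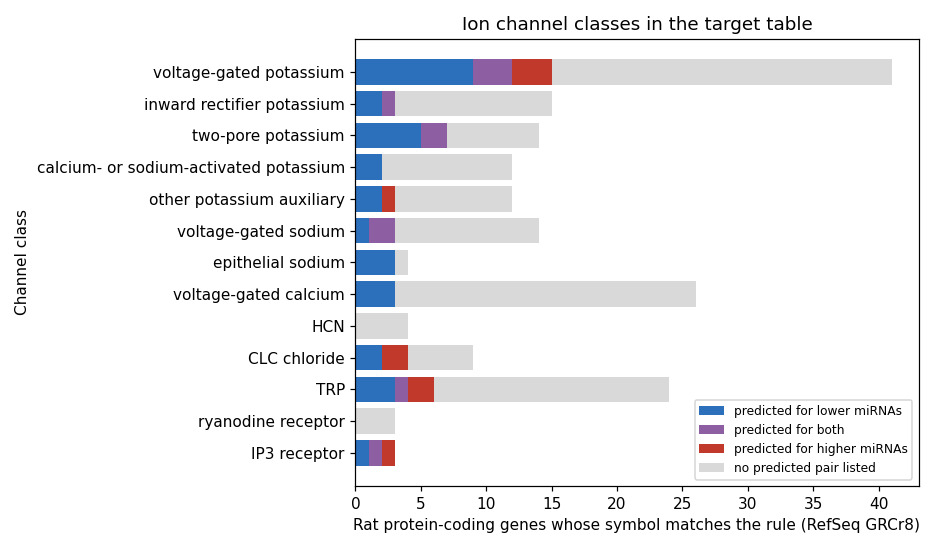
Number of rat protein-coding genes (horizontal axis) in each channel class (vertical axis) of the RefSeq GRCr8 annotation, coloured by whether the table pairs them with lower miRNAs alone (blue), higher ones alone (red), both (purple) or none of the 22 (grey). Two-pore potassium channels have 7 of 14 genes in the table, inositol trisphosphate receptors 3 of 3, and HCN channels and ryanodine receptors 0 of 4 and 0 of 3.

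Among sodium channel genes, 6 of 8 pairs of the voltage-gated class and 4 of 4 of the epithelial class were with lower miRNAs. These counts are small, and lower miRNAs held 69% of all channel pairs and 54.7% of the pairs of all genes. Scn4b, an auxiliary subunit of sodium channels in heart and nerve, was predicted for miR-207, miR-760-3p and the higher miR-181c-5p, all from position 1860 onwards and at energies between -21.02 and -23.25. Scn8a, a pore subunit found chiefly in neurons, was predicted for miR-326-5p at -33.74. The epithelial sodium channel, which reabsorbs sodium in kidney and lung, had its 3 subunits Scnn1a, Scnn1b and Scnn1g in the table, Scnn1a and Scnn1g for miR-326-5p and Scnn1b and Scnn1g for miR-760-3p.

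Of 26 annotated voltage-gated calcium channel genes, 3 (11.5%) were in the table. The share was 28.4% over all genes that match the rule and 16.6% over all protein-coding genes. Each of the 3 had 1 lower miRNA. Cacna1g, a T-type channel pore of pacemaker and developing heart cells, was predicted for miR-207 at -24.98. Cacnb2, the main auxiliary subunit of the cardiac L-type channel, was predicted for miR-328a-5p at a score of 151, the lowest the table holds, and Cacnb1, its skeletal muscle counterpart, for miR-326-5p at 160. The L-type pore genes Cacna1c and Cacna1d had no pair listed. Among calcium release channels, the 3 ryanodine receptor genes, including cardiac Ryr2, had no pair listed, and all 3 inositol trisphosphate receptor genes did. With 3 genes each these counts are small, where 28.4% of all genes that match the rule were in the table. Whether the unlisted genes were searched is not stated. Itpr1 was predicted for the higher miR-362-5p and miR-503-5p, Itpr3 for the lower miR-326-5p, and Itpr2, the receptor type prominent in heart muscle cells, for miR-326-5p and the higher miR-542-5p. Of the 5 sites in these receptors, 2 had the 7 seed bases fully paired, those in Itpr2 for miR-542-5p and in Itpr3.

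In the CLC and TRP families 2 of 5 and 4 of 8 pairs were with higher miRNAs, and in the inositol trisphosphate receptor family 3 of 5. The share from higher miRNAs was 31% over all channel pairs (27 of 87) and 45.3% over the pairs of all genes. These family counts are too small to set apart from those shares. In the CLC family of chloride channels and exchangers, Clcn3, an endosomal exchanger, was predicted for miR-207 and miR-328a-5p, with an energy of -33.52 for the latter. Clcn6, of late endosomes, was predicted for miR-702-5p at -28.49. Clcn4-2, which RefSeq lists as a synonym of Clcn4, was predicted for miR-330-3p at 151. In the TRP family of cation channels, Trpm4, a calcium-activated channel present in cardiac conduction tissue, was predicted for miR-760-3p (score 168) and miR-330-3p (154). Trpv3, known as a warmth sensor of skin, was predicted for miR-350 at 169, and Trpv5, a calcium channel of kidney tubules, for miR-18a-5p and miR-500-5p at 156 and 151. Trpv4, an osmotic and mechanical sensor, and Trpm8, the cold receptor, were predicted for miR-702-5p, and Trpc4ap for miR-328a-5p at 151. HCN pacemaker channels had none of their 4 genes in the table.

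A list of 39 heart channel genes was chosen with earlier results of these data known, as were the other lists below, so their shares are description only. Of the 39, 14 were in the table, with 24 pairs. Of these pairs 20 (83.3%) were with lower miRNAs, beside 69% of all channel pairs and 54.7% of the pairs of all genes. Of these 14 genes, 10 (among them Kcnq1, Kcnj5, Kcnj11, Kcnk2, Kcnk3, Kcnip2, Cacna1g, Cacnb2 and Clcn3) were predicted for lower miRNAs alone, 4 (among them Kcnd3, Trpm4 and Itpr2) for both and 0 for higher ones alone. The 25 with no pair listed include Kcnh2, the pore of the rapid delayed rectifier, Hcn4, the main pacemaker channel, and Ryr2. Among 20 genes for partners of channels, 7 were in the table, with 6 of their 8 pairs from lower miRNAs, a count too small to set apart from those shares. They include, for lower miRNAs, the anchoring proteins Ank2 and Ank3 and the ubiquitin ligase Nedd4l, which acts on epithelial sodium channels, and, for higher miRNAs, Casq2, the calcium store protein, and Stim1, the store sensor. Of 19 channel genes outside the symbol rule, 2 were in the table, Ano1, a calcium-activated chloride channel, and Gja1, the main gap junction protein of the ventricle, both for lower miRNAs. In the whole annotation, 28.4% of the 183 rat protein-coding genes that match the rule were in the table, against 16.6% of all 23154. All 52 channel genes were matched to this annotation, but only 3844 protein-coding genes were matched from the 4260 of the table. The 16.6% therefore leaves out the unmatched genes and is not fully comparable. Because the genes searched are not stated, these shares carry no test.

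The 97 sites of the 87 pairs resembled those of all genes in score but differed by miRNA side. Their median alignment score was 156, as over all 6476 sites, and the median energy was -25.41 against -24.83. All 7 seed bases were paired in 66 of 97 channel sites (68%) and in 69.6% of all sites. Split by side, this held for 55 of the 68 sites of lower miRNAs (80.9%, with 73.5% over all genes) and for 11 of the 29 sites of higher miRNAs (37.9%, with 64.6% over all genes). These 29 are few and not independent. miR-362-5p and miR-500-5p, of one seed, held 6 and 5 of them, in part over the same bases, and Kcnj6 alone held 7. Without Kcnj6 the count was 9 of 22 (40.9%). In the 31 channel sites of either side without full seed pairing, 6 of the 7 seed bases were paired, and in 25 of these the remaining base formed a G-U pair. Energies were lower at sites of lower miRNAs, with a median of -27.01 against -22.8, and over all genes the split was nearly the same, -26.54 against -23.02. All 20 channel sites at -30 or below belonged to lower miRNAs, 9 of them to miR-328a-5p. Over all genes the sites of higher miRNAs, 2869 against 29 here, reached -38.1. Their share at -30 or below was not counted, so this is no contrast with other genes. The G and C content of the sites moved with this, with a median of 64.1% at sites of lower miRNAs and 50% at sites of higher ones, and over all genes the medians were 61.9 and 52.2%. Its part in the energies was not tested.

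**Figure D4:**
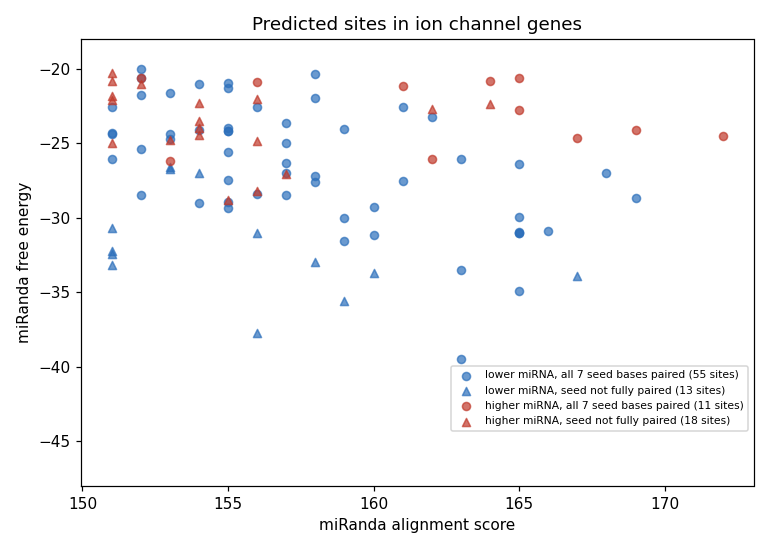
miRanda alignment score (horizontal axis) against free energy (vertical axis, in the program's units) for the 97 predicted sites in channel genes, blue for lower and red for higher miRNAs, circles where all 7 seed bases are paired and triangles where they are not. No red point lies at or below -30, and circles make up 55 of the 68 blue and 11 of the 29 red points.

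There were 4 stretches counted for 2 miRNAs each, so the 97 sites fell on 93 separate stretches. Kcna7 (846 to 868) and Kcnj6 (4324 to 4347) were matched by miR-362-5p and miR-500-5p over the same bases, and Kcns1 (486 to 506) by miR-326-5p and miR-328a-5p over 20 shared bases.
Kcna7 for miR-362-5p and miR-500-5p: ggtagcatcaggatcCAAGGGTc
Kcnj6 for miR-362-5p and miR-500-5p: cctcaaacccaggtcaCAAGGGTg
Kcns1 for miR-328a-5p: gtggccaacccccTGCCCCCa
In Kcna7 and Kcnj6 the seed match held 1 G-U pair for each of the miRNAs. In all 4 stretches the miRNAs had like seeds, miR-362-5p with miR-500-5p or miR-326-5p with miR-328a-5p. Both combinations are of one side, so no stretch was counted for a lower and a higher miRNA together. Most pairs, 79 of 87, had 1 site, and 34 genes had 1 site in all.

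**Figure D5:**
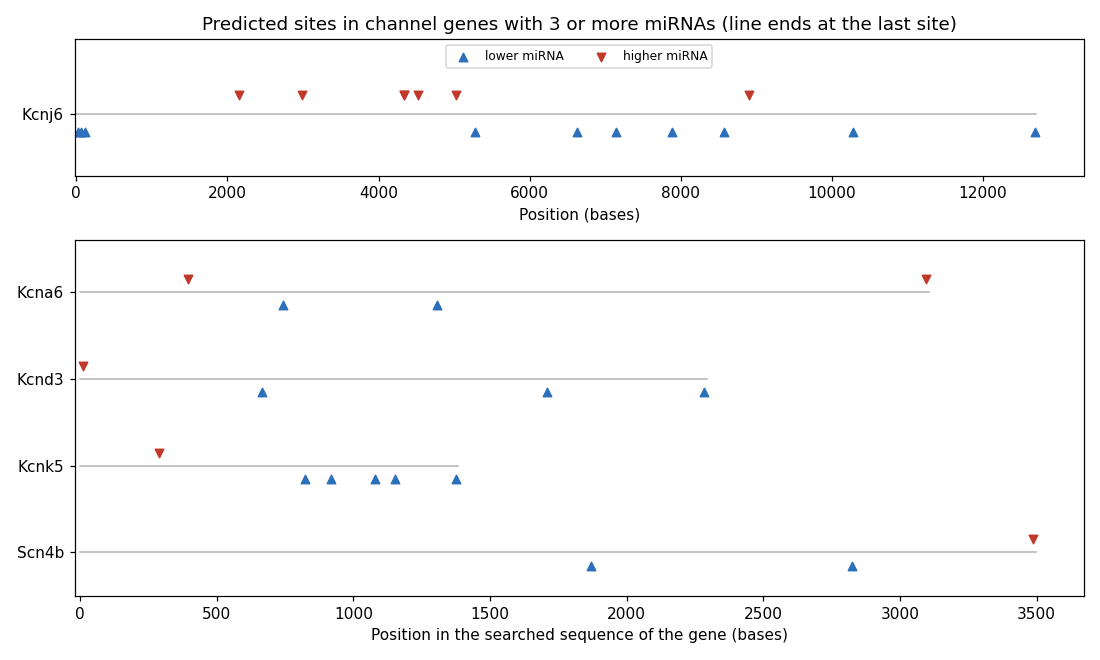
Positions of the predicted sites (horizontal axis, bases from the start of the searched sequence) in 5 of the 7 channel genes with 3 or more miRNAs, Kcnj6 above on its own scale. Blue upward triangles are sites of lower miRNAs and red downward ones of higher miRNAs, and each line ends at the last site. Kcnj6 has 17 sites up to position 12693, and the last site of the other 4 genes drawn ends at 3497 or before.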

How the data were processed

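Per the labels' protocols, 1 ug of Trizol-extracted RNA was biotin-labelled for Affymetrix miRNA 4.0 arrays. Per the submitters' processing notes the tools were Affymetrix Expression Console and MAS5. Per the file headers the signals are RMA values with detection calls, so which method made them is not settled. The deposited signals are log2 values, per the authors' note sheet. The authors' p-values, FDR, mean intensities per class and their fold ratio are also deposited, and are not used here. For each predicted site the deposited miRanda table gives an alignment score (limit 150) and an energy score (limit -20), and 18 lines of it arrived empty. No channel pair lost all its sites. Neither the version of miRanda nor the sequences searched are stated in the sources used here.

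The 728 mature probe sets were fitted with limma 3.58.1 in R 4.3.3 (lmFit and eBayes, exosome minus untreated, Benjamini-Hochberg). The fit was also run on simulated arrays, with shifts larger than the differences of most listed miRNAs. That check does not measure how often differences of the size seen here would be found. The list's signals equalled the value table (largest difference 0), and 0 columns were left unmapped. The number of arrays limits the precision. Pairing of each seed base was read from the authors' alignments, and overlapping sites of a gene were merged into stretches. Counts used Python 3.11.15 with pandas 2.3.3. Of the 52 symbols, 51 matched RefSeq GRCr8 directly and 1 as a synonym. The members, gene lists and rule for named genes (3 or more miRNAs, heart channel list, extreme scores or energies, 3 sites of 1 miRNA, or the first of a class) were chosen with earlier results of these data known. Counts cover all members, and some members and partner genes are not reported by name here.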

Additional observations from a re-analysis of the deposited data

How the results depend on the processing

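The direction of the 17 miRNAs, and with it the split of 27 and 60 channel pairs, was the same after quantile normalization, median centring, centring on bright miRNAs (added after seeing the data) and without any single array. At a score of at least 160, 22 genes remained, with 10 pairs from higher and 17 from lower miRNAs (63% lower, against 47% over all genes). At an energy of -25 or lower there were 33 genes and 5 pairs from higher miRNAs, with 40 from lower ones (88.9%, against 73.1%). With all 7 seed bases paired, a choice added after seeing the data, 11 pairs came from higher miRNAs and 48 from lower (81.4%, against 58.2%). Without auxiliary subunits there were 43 genes. With only miRNAs detected on all 6 arrays, 51 pairs from lower miRNAs were left (65.4%, against 48.9%). The number of mature miRNAs with an adjusted p under 0.05 in limma ran from 0 to 23 when single arrays were left out, 23 without exosome replicate 3 and 1 without untreated replicate 1, and among the 17 from 0 to 5. The 5, all without exosome replicate 3, were miR-326-5p, miR-328a-5p, miR-106b-3p, miR-542-5p and miR-181c-5p (adjusted p 0.00791 to 0.0452). The floor, dim filter, trend and robust settings gave 0 calls. The replicate block also gave 0 calls. Same-numbered arrays correlated at 0.0352, 0.324 and 0.291 in their deviations from the group means. With untreated arrays of other numbers, exosome replicates 1, 2 and 3 correlated at -0.21 to 0.243, -0.229 to -0.00898 and -0.376 to -0.0175. For replicates 2 and 3 the same-numbered value was thus the higher one. The main fit did not pair the arrays, and whether the numbers pair them is not settled.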
